A study of Gallus gallus with 2 samples.

Results

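The pyruvate dehydrogenase complex turns pyruvate into acetyl-CoA inside mitochondria and so links glycolysis to the citric acid cycle. It is built from the E1 enzyme (PDHA1 and PDHB), the E2 acetyltransferase (DLAT), the E3 dihydrolipoamide dehydrogenase (DLD) and the E3-binding protein (PDHX). Pyruvate dehydrogenase kinases (PDK1 to PDK4 in mammals) phosphorylate E1 and switch the complex off, and a phosphatase made of a catalytic subunit (PDP1 or PDP2) and a regulatory subunit (PDPR) switches it back on. PDK4 is the isoform best known in mammals for being induced by fasting, fatty acids and glucocorticoids. Members were all non-control probes that the files name, by symbol, gene identifier or accession, as 1 of 10 genes of the complex and its regulators. Of these genes, 9 had a probe, out of 8631 named genes on the array, and PDP1 had none by these names. They were measured by 11 probes, since DLAT and PDPR had 2 each.

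These genes were examined in broiler chickens aged 14 days, in a preparation of intestinal intraepithelial lymphocytes, mostly T cells that lie between the cells of the gut epithelium. RNA of birds given a direct fed microbial (DFM, live bacteria in feed) was hybridised together with RNA of untreated control birds on each of 2 Agilent chicken arrays with 2 colours. DFM RNA carried Cy5 on the array of replicate 1 and Cy3 on that of replicate 2, and the control RNA carried the other dye. In the labels replicate 2 is a biological replicate and also replicate 1 with its dyes exchanged, and they do not give the number of birds per RNA, so all spreads are between 2 arrays and may be technical.

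All 11 member probes were well above background in all 4 channels, so that each passed the filter for the fit over all probes. The gene set was selected on the log2 ratios of PDPR and PDK4 in these same arrays, which were known to be among the most extreme, so the ratios below are a description, and members' calls in the fit over all probes are only counted, with no p-value. A log2 ratio is DFM over control after background correction and loess, which sets the average probe of an array to 0.

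The members far from the average probe were PDPR and PDK4. The 6 probes of the 5 enzyme subunits stayed near the average probe, with mean log2 ratios from -0.33 to 0.20, whereas the 5 probes of the kinases and the phosphatase subunit ran from -2.37 (PDK4) to 3.90 (PDPR). In the limma fit over all 18242 tested probes, 3 of the 11 member probes were called at an adjusted p under 0.05, both PDPR probes higher and PDK4 lower. Over all tested probes 22.6% were called, 12.1% higher and 10.5% lower. Since the change of 2 members led to the choice of the set, nothing is read from that count.

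**Figure D1:**
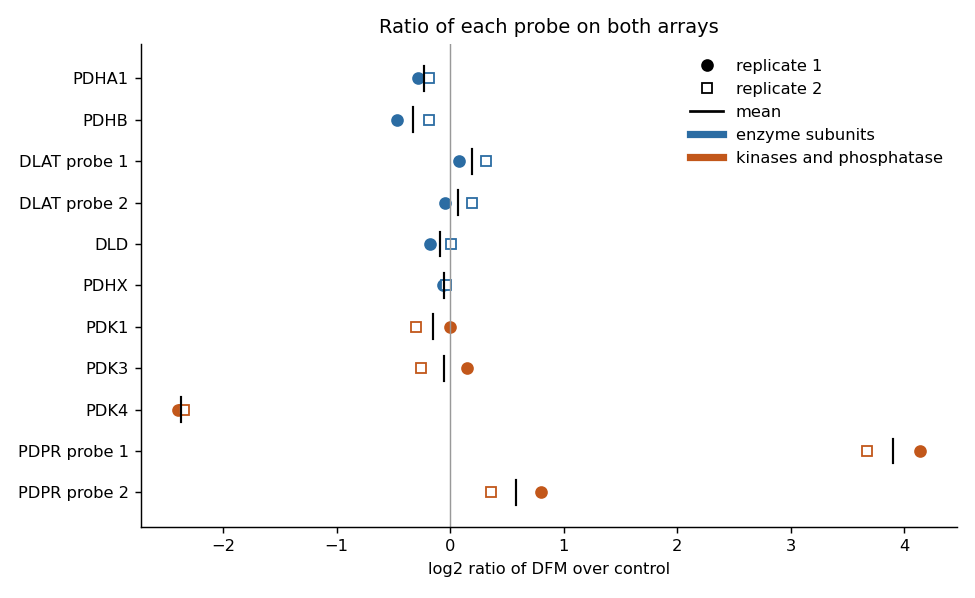
The log2 ratio of DFM over control (x axis) is shown for each of the 11 probes (y axis) on replicate 1 (filled circles) and replicate 2 (open squares), with the mean as a vertical line. Enzyme subunits are blue and regulators orange: PDK4 lies at -2.40 and -2.34, the first PDPR probe at 4.14 and 3.67, and the subunits between -0.47 and 0.31.

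PDPR, the regulatory subunit of the phosphatase, was read by 2 probes that gave different sizes of change. The first, A_87_P008075, at chr11:1694775-1694834 of galGal2 (the build in the file headers), had a raw signal of 2793 with DFM and 90.02 with control on replicate 1. On replicate 2 its signal was 1285 with DFM and 184 with control. DFM was the brighter channel on both arrays, whichever dye it carried. The log2 ratios were 4.14 and 3.67, with a mean of 3.90 ± 0.33 (SD, n = 2 arrays), or 15.0-fold. This was the ninth highest of the 18242 tested probes.

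The control signal behind that ratio was dim. The 153 negative control spots had a median of 61.9 and a highest value of 68.9 in the control channel of replicate 1, against 90.02 for the probe, and a median of 55.9 and a highest value of 64.4 on replicate 2, against 184. The mean log2 ratio was 4.69 with no offset and 5.03 with the processed signals of the scanner software followed by loess.

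The second PDPR probe, A_87_P008076, at chr11:1693643-1693702, had raw signals of 198 with DFM and 86.8 with control on replicate 1. On replicate 2 they were 129 with DFM and 144 with control, so that DFM was brighter on 1 array before dye normalization. Its log2 ratios were 0.80 and 0.36, with a mean of 0.58 ± 0.31 (SD, n = 2 arrays), or 1.49-fold. It was called in the fit over all probes and with offset 0, where its mean was larger, at 1.00. It was not called with the processed signals or the scanner software's ratio, though its mean was larger there too, at 1.15 and 1.07. With median centring it measured 0.54 and was not called.

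The probes of PDPR thus differed by 3.35 on the log2 scale on replicate 1 and by 3.31 on replicate 2. Among the 551 named genes with more than 1 tested probe, the median gap between a gene's highest and lowest mean ratio was 0.21 and the 95th percentile 0.92. PDPR had the widest gap of all 551, at 3.33, followed by the fibrillin gene FBN1 at 3.05. Because PDPR was selected for the extreme ratio of its first probe, this rank is only a description. Which of the probes reports the PDPR transcript was not tested.

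In a window of 25000 bases on either side, chosen after the ratios were seen, neighbouring probes had ratios nearer to that of the second PDPR probe than to that of the first. The same holds for most probes of the array, since the first PDPR probe was selected for its extreme ratio. The neighbours therefore cannot tell which probe reports the PDPR transcript. A probe named only by the cDNA CR352885 is assigned in the files to the same assembled transcript cluster as the second PDPR probe and to another cluster. The first PDPR probe is assigned to neither cluster, but both PDPR probes are assigned to the same RefSeq transcript model. The CR352885 probe, 5405 bases from the first PDPR probe, had log2 ratios of 0.50 and 0.37. The sialyltransferase gene ST3GAL2, 5812 bases away, measured 0.47 and 0.26, and the Golgi complex gene COG4, 18299 bases away, 0.42 and 0.32. Distances run between the first coordinates listed, the higher end for probes on the minus strand and the lower end for those on the plus strand. On the other side GLG1, which encodes a Golgi apparatus protein, measured -0.13 and -0.26. The remaining 2 probes of the window, FUK and BU456750, were well above background in no channel. No other probe in this window had a ratio near that of A_87_P008075.

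**Figure D2:**
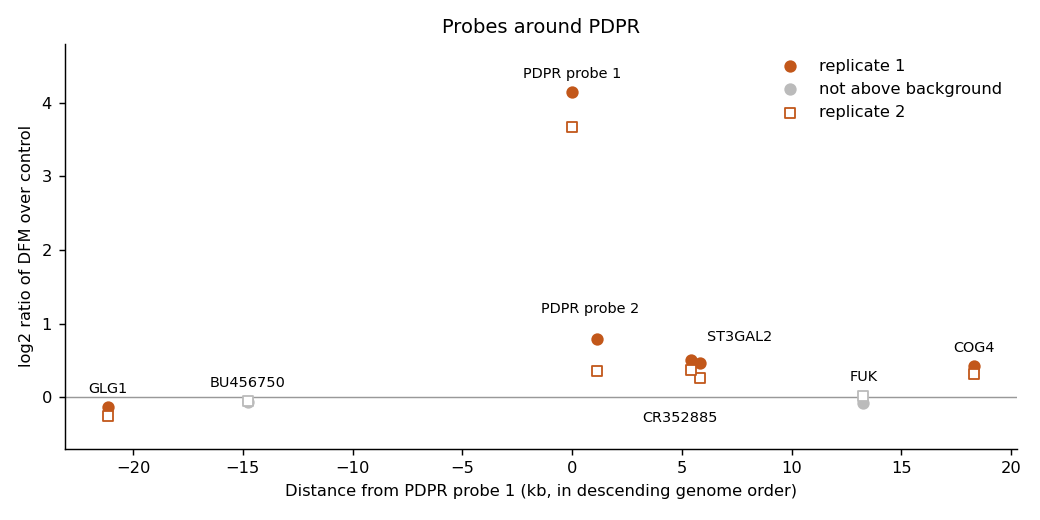
The log2 ratio of DFM over control (y axis) is plotted for each probe within 25000 bases of the first PDPR probe against its distance from it in kb (x axis), with replicate 1 filled, replicate 2 open, and probes well above background in no channel in grey. The first PDPR probe stands at 4.14 and 3.67, and every other probe in the window lies between -0.26 and 0.80.

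PDK4 was the member with the lowest ratio. Its probe (A_87_P015783, chr2:23211638-23211697) had raw signals of 1095 with DFM and 2934 with control on replicate 1. On replicate 2 they were 461 with DFM and 4600 with control. All 4 were far above the negative control spots, and the control channel was the brighter one on both arrays. The log2 ratios were -2.40 and -2.34, with a mean of -2.37 ± 0.04 (SD, n = 2 arrays), or 5.17-fold lower, the fourth lowest of the 18242 tested probes. This direction is relative to the average probe. With ratios set to the 10 spike-in RNAs instead, the median tested probe moved from 0.00 to 2.12, and PDK4 measured -0.25 and was not called, while the other 10 member probes were all called higher.

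The other kinases had ratios near 0. PDK1, known in mammals as a target of hypoxia signalling, had raw signals of 559 with DFM and 326 with control on replicate 1, and of 256 with DFM and 564 with control on replicate 2. Its log2 ratios were 0.00 and -0.30 (mean -0.15 ± 0.21, SD, n = 2 arrays). PDK3 had raw signals of 764 with DFM and 396 with control on replicate 1, and of 364 with DFM and 799 with control on replicate 2. The log2 ratios of PDK3 were 0.15 and -0.25 (mean -0.05 ± 0.28, SD, n = 2 arrays). For PDK3 the arrays disagreed in sign, and for PDK1 replicate 1 lay at 0, so neither had a direction, while both PDK4 ratios lay at least 2 log2 units below those of the other kinases. No probe was found for PDK2 by name.

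PDP2, the other catalytic subunit of the phosphatase, is not in the set but opposes the same kinases. It had raw signals of 314 with DFM and 385 with control on replicate 1, and of 163 with DFM and 982 with control on replicate 2. On the log2 scale its ratios were -1.03 and -1.78 (mean -1.40 ± 0.53, SD, n = 2 arrays), or 2.64-fold lower (limma adjusted p = 0.00129 over all tested probes). Both arrays gave the same sign, with a wide gap between them. Relative to the average probe, the catalytic phosphatase subunit PDP2 and the kinase PDK4 were thus lower on both arrays, and both PDPR probes were higher. Spike-in scaling moves every probe up by 2.12, which is more than the mean of PDP2 lies below 0, so its direction does not hold there.

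**Figure D3:**
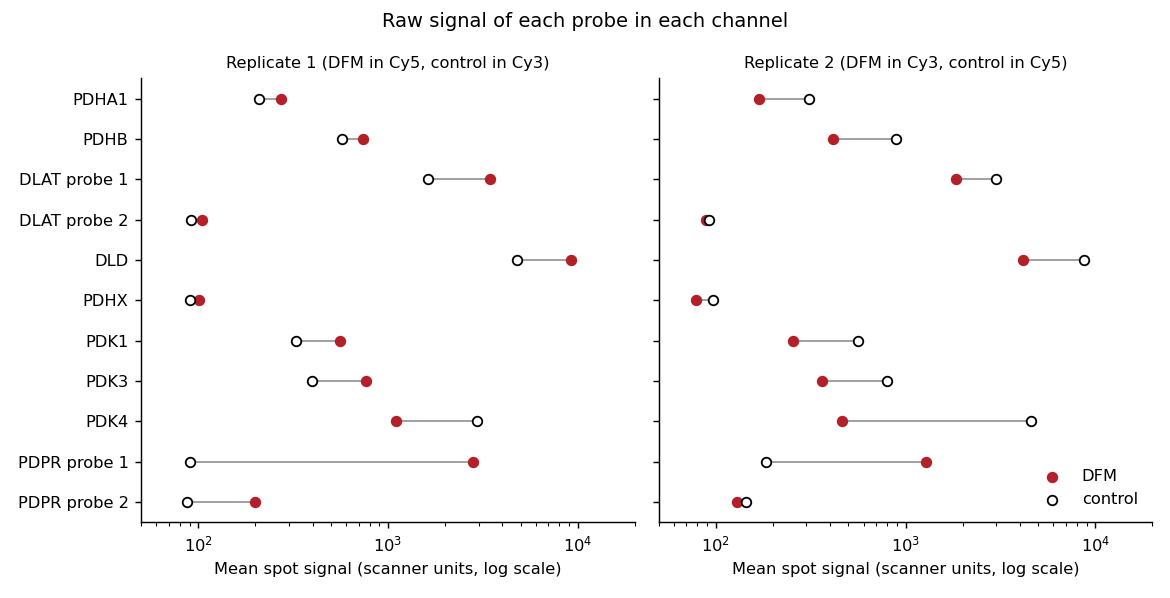
The raw mean spot signal in scanner units (x axis, log scale) is shown for each of the 11 probes (y axis) in the DFM channel (red) and the control channel (open) of replicate 1 (left) and replicate 2 (right), joined by a line. For most probes the brighter channel is the Cy5 one on both arrays, which the dye normalization removes, whereas PDK4 is brighter in control and the first PDPR probe brighter with DFM on both.

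Among the enzyme subunits, the E1 genes had the lowest ratios. PDHA1, the catalytic alpha subunit, which the RefSeq table lists under the symbol PDHA2 with PDHA1 as a synonym, had raw signals of 272 with DFM and 208 with control on replicate 1, and of 169 with DFM and 311 with control on replicate 2. Its log2 ratios were -0.28 and -0.18 (mean -0.23 ± 0.07, SD, n = 2 arrays). PDHB, the beta subunit of E1, had raw signals of 739 with DFM and 574 with control on replicate 1, and of 416 with DFM and 886 with control on replicate 2. The log2 ratios of PDHB were -0.47 and -0.19 (mean -0.33 ± 0.19, SD, n = 2 arrays). Both E1 genes were below 0 on both arrays, and neither was called.

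DLAT, which carries the acetyl group on its lipoyl arms, was bright by its first probe (A_87_P009835, chr24:5822822-5822881). That probe had raw signals of 3451 with DFM and 1623 with control on replicate 1, and of 1847 with DFM and 3013 with control on replicate 2. Its log2 ratios were 0.08 and 0.31 (mean 0.20 ± 0.17, SD, n = 2 arrays). The second DLAT probe (A_87_P035324) was dim, with raw signals from 88.4 to 104 in the 4 channels and log2 ratios of -0.05 and 0.19. Both DLAT probes had a mean above 0, at 0.20 and 0.07, and neither was called. A further 4 probes carry a DLAT-like description from partial protein similarity only and were not counted as members. Of these, 3 were well above background in no channel and the other measured 0.15 and 0.04.

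DLD, the E3 enzyme that the complex shares with the 2-oxoglutarate and branched-chain dehydrogenases, had raw signals of 9236 with DFM and 4759 with control on replicate 1, and of 4172 with DFM and 8748 with control on replicate 2. Its log2 ratios were -0.18 and 0.01 (mean -0.09 ± 0.13, SD, n = 2 arrays). PDHX, the protein that holds E3 in the complex, was dim at 100.3 with DFM and 89.9 with control on replicate 1, and at 79.0 with DFM and 97.1 with control on replicate 2. The log2 ratios of PDHX were -0.06 and -0.04 (mean -0.05 ± 0.02, SD, n = 2 arrays). Both genes lay within 0.2 log2 units of the average probe on both arrays. The offset compresses ratios at the signal level of PDHX, of the second DLAT probe and of the second PDPR probe.

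Taking the brightest probe of each gene, the 5 subunits had a median log2 ratio of -0.09 and spanned 0.52 log2 units. The median over 6015 named genes was -0.08, with quartiles at -0.29 and 0.15, and 57.4% of these genes fell within the range of the subunits. The 4 regulators spanned 6.27 log2 units around a similar median of -0.10. That span is set by PDPR and PDK4, on whose ratios the gene set was selected, so nothing is read from its width. The other regulators, PDK1 at -0.15 and PDK3 at -0.05, lay within the range of the subunits. In the order of the mean ratios, every neighbouring pair of probes from the first DLAT probe down to PDHB overlapped between arrays. Neither PDPR probe overlapped with the next probe in that order, nor did PDHB with PDK4. All 6 subunit probes had the lower ratio on replicate 1, against 1 of the 5 regulator probes. The same share over all tested probes is not given here, so nothing is read from these counts. A dye effect on a probe and a difference between the replicates cannot be told apart with 1 array per dye orientation.

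**Figure D4:**
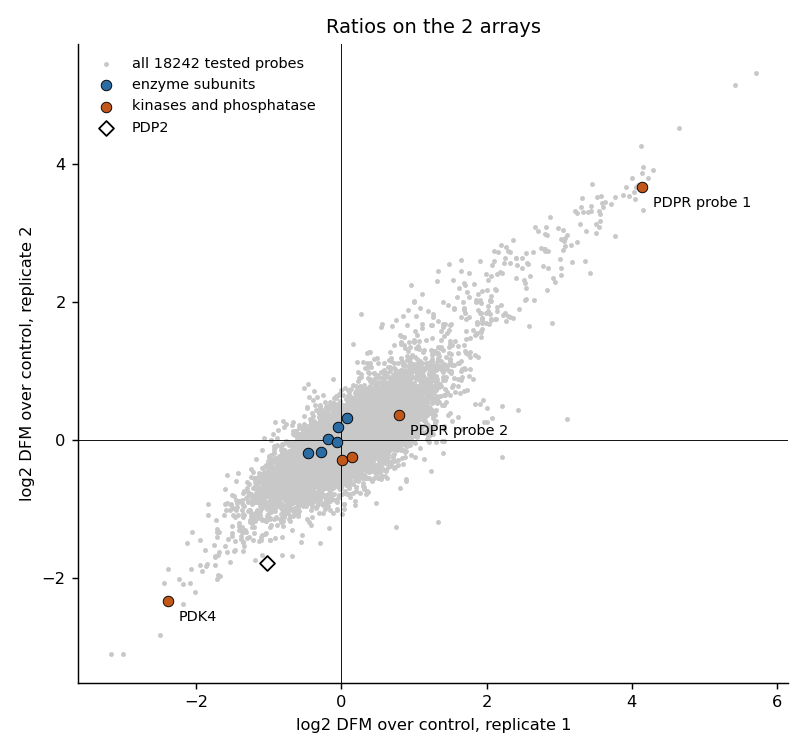
The log2 ratio of DFM over control on replicate 1 (x axis) is plotted against that on replicate 2 (y axis) for all 18242 tested probes (grey), the enzyme subunits (blue), the kinases and PDPR (orange) and PDP2 (diamond). The subunits, PDK1 and PDK3 sit in the centre of the cloud, the first PDPR probe at 4.14 and 3.67 lies in its upper tail and PDK4 at -2.40 and -2.34 in its lower tail.

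The genes whose pair of ratios was nearest to that of the first PDPR probe, by Euclidean distance over the 2 arrays and the brightest probe of each named gene, were SH3BP4, ACHE, CELA2A, EFNA2 and PAPSS1. SH3BP4, an endocytic adaptor, lay at a distance of 0.40 log2 units, with ratios of 3.77 and 3.51. PAPSS1, which makes the sulfate donor, was the fifth at 0.78. Nearest to PDK4 were OC3, KLF6, GPRC5A, PMM2 and MGP, at distances of 0.35 to 0.50. KLF6, a zinc finger transcription factor, had ratios of -2.02 and -2.21. OC3 was well above background in 3 of 4 channels. MGP had 2 tested probes whose mean ratios differed by 2.41, and only the brightest of them was used here.

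Lists of cell type markers were read against all named genes, of which 23.0% were called. Of 9 tested exocrine pancreas genes, 9 were higher with DFM, with a median log2 ratio of 2.77. CEL and PNLIP, the latter read by a probe that RefSeq gives to PNLIPRP1, were well above background in 2 channels only. They thus passed the filter through the DFM channels alone and could not have come out lower. CPB1 and CTRL were well above background in 3 channels, so they also passed the filter through 1 group alone. The count of 9 and the median rest in part on these 4 genes and are given as a description. The summed normalized signal of the 9 genes was 22977 and 20519 with DFM against 1209 and 1180 with control. All summed signals here include the offset of 50 per probe, which weighs most on low sums such as these control ones. PRSS2 and PRSS3 were well above background in no channel. Of 11 tested gut epithelium genes, 1 was higher and 5 were lower, with a median of -0.49 and summed signals of 608070 and 470887 with DFM against 569992 and 570979 with control. FABP2 was well above background in no channel, and the probes of MUC2, a gut mucin, were called in opposite directions (0.81 for the dimmer probe and -0.92 for the brighter). ANPEP was not called by its brighter probe, at a mean of 0.37, but was called lower by its dimmer one, at -1.70. Of 10 tested T cell genes, 1 was higher and 2 were lower, with a median of -0.17 and summed signals of 67514 and 53490 with DFM against 144488 and 118440 with control. GZMA, a granzyme of cytotoxic lymphocytes, was 3.14-fold lower, and without it the summed signals were 38636 and 29868 with DFM against 51740 and 45715 with control. The T cell list includes PTPRC, which was well above background in no channel. Of the other lists, 0 of 5 tested B cell genes were higher and 1 was lower, 2 of 3 macrophage and granulocyte genes were higher and 0 lower, and of 5 erythrocyte genes 1 was higher and 2 were lower. CSF1R was well above background in no channel. The part of cell makeup in the ratios of PDPR and PDK4 was not tested, and in bulk RNA fewer cells of a type and less RNA per cell cannot be told apart.

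Genes around the complex were taken from 6 lists of 107 genes, of which 76 were on the array and 63 tested. By the brightest probe, 4 of the 63 were higher, 16 lower and 43 not called, with a median log2 ratio of -0.16. Over all 6015 named genes 8.46% were higher and 14.5% lower (23.0% called in either direction), with a median of -0.08. The count of 20 called genes fell to 6 with the scanner software's ratio and to 6 with its processed signals. With median centring 0 of the 63 were called, and with spike-in scaling 63 were called higher, so the calls below are those after loess, and their directions are relative to the average probe.

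Pyruvate and lactate handling had 0 higher, 5 lower and 4 uncalled genes out of 9 tested, with a median of -0.47. GPT2, the mitochondrial alanine aminotransferase that makes pyruvate from alanine, fell by 1.17 on the log2 scale (SE 0.13, n = 2 arrays, limma adjusted p = 0.000555). PCK1, the gluconeogenic phosphoenolpyruvate carboxykinase, was 2.11-fold lower, malic enzyme ME1 1.63-fold and lactate dehydrogenase LDHA 1.62-fold. MPC1, a subunit of the carrier that brings pyruvate into mitochondria, was the fifth gene called, at log2 ratios of -0.43 and -0.51, and is named because the others are. RefSeq lists it as MPC1L, with MPC1 as a synonym.

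The citric acid cycle burns the acetyl-CoA. Its list, which also holds the NADP-dependent IDH2 and the cytosolic MDH1, had 0 higher, 4 lower and 8 uncalled genes out of 12 tested, with a median of -0.20. Mitochondrial NADP-dependent isocitrate dehydrogenase IDH2 was 2.17-fold lower, at log2 ratios of -1.14 and -1.10. DLST, the E2 subunit of the 2-oxoglutarate dehydrogenase complex and the counterpart of DLAT, was 2.04-fold lower but unevenly, at -1.46 and -0.60 (limma adjusted p = 0.00731). MDH1, a cytosolic malate dehydrogenase, was 1.57-fold lower and the succinate dehydrogenase subunit SDHA 1.44-fold. DLST thus had a mean of -1.03 where DLAT had 0.20 by its bright probe, and the difference between these 2 genes was not tested.

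The sister lipoyl enzymes with lipoylation and thiamine genes had 1 higher, 0 lower and 8 uncalled genes out of 9 tested, with a median of -0.12. The one called was AMT, an aminomethyltransferase of the glycine cleavage system, which was 1.62-fold higher. Fatty acid oxidation, whose acetyl-CoA competes with that from pyruvate, had 2 higher, 1 lower and 14 uncalled genes out of 17 tested, with a median of 0.01. The lipid droplet coat gene PLIN2 was 1.85-fold higher, the electron transfer flavoprotein gene ETFA 1.41-fold higher and HADHA, the alpha subunit of the trifunctional protein, 1.70-fold lower. Of 3 tested genes of acetyl-CoA export and lipid synthesis 0 were higher and 1 was lower, THRSP, at 1.34-fold.

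Transcription factors, cofactors and other regulators known from mammals to act on PDK genes had 1 higher, 5 lower and 7 uncalled genes out of 13 tested. Their median was -0.34, and the list holds activators and repressors together. HNF4A, a nuclear receptor of gut and liver epithelium that is also among the epithelial markers, was 2.18-fold lower (log2 ratios -1.10 and -1.15, limma adjusted p = 0.00062). PPARD, a fatty acid sensing nuclear receptor that induces PDK4 in mammals, was 1.77-fold lower, at -0.77 and -0.87. The deacetylase gene SIRT1 was 1.52-fold lower. CEBPB, a factor that acts in stress and inflammation and is also made by myeloid cells, was 1.67-fold higher, at 0.65 and 0.84.

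**Figure D5:**
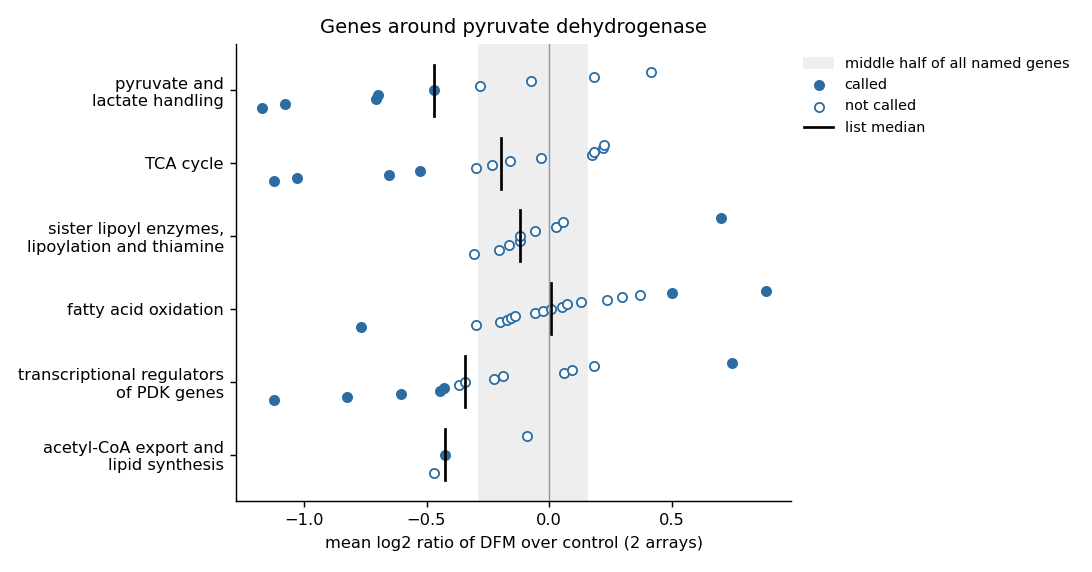
The mean log2 ratio of DFM over control over 2 arrays (x axis) is shown for each tested gene of the 6 lists (y axis), filled where called by limma and open where not, with the list median as a black bar and the range from -0.29 to 0.15, the quartiles of all named genes, in grey. Pyruvate and lactate handling has its median at -0.47 and fatty acid oxidation at 0.01.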

How the data were processed

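The deposited intensity values are, per the file headers, each spot's mean brightness and median local background in Cy3 and Cy5. The files also hold the scanner software's background-subtracted, dye-normalized signals and their log10 ratio of Cy5 over Cy3, per the file headers, with a deposited p-value of that ratio within 1 array, which was not used. The authors' deposited series table holds log2 values, which equalled log2 of the processed DFM over control signals within 0.001 for 100% of 42034 probes on both arrays. Its medians were -0.274 and 0.204. The file headers name Feature Extraction 9.5.3.1 and galGal2, and the submitters' processing notes name version 10.7.3.1.

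Mean signals were background-corrected by normexp (offset 50) and loess-normalized within arrays with limma 3.58.1 in R 4.3.3, control spots at weight 0. Controls and 5 outlier probes were left out. Probes well above background on both arrays in at least 1 group's channel were tested (18242) against 0 with lmFit and eBayes (1 residual and 7.52 prior degrees of freedom), two-sided, with Benjamini-Hochberg adjustment at 0.05. The fit was also run on simulated ratios, drawn as independent normal values with variances from limma's own prior. They held no dye effect and no RNA shared between arrays, so that run cannot show how the calls stand up to either. No dye term was fitted, since with 2 arrays it takes up the last residual degree. The number of arrays limits the precision. Probes were named through a RefSeq table of GRCg7b, used for names only (10305 of 42034 named). List genes were also matched by synonym, so that PKM, STAT5B and ALAS2 are read by probes that RefSeq gives to PKLR, STAT5A and ALAS1, none of them called. In the same way PNLIP is read by a probe that RefSeq gives to PNLIPRP1, and this probe was called higher. A gene was represented by its brightest tested probe. The members and lists were chosen with earlier results of these data known. Named were all members, PDP2, the 4 most changed called genes of each list, any gene with probes called in opposite directions (0 in these lists), and the 5 genes nearest to PDPR and to PDK4. Alternatives covered the offset, background correction, normalization, the authors' values, spike-in scaling, the dim probe filter, the probe that stands for a gene, and each array alone.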

Additional observations from a re-analysis of the deposited data

How the results depend on the processing

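The count of called probes (4120, 53.4% higher) was within 1.5 times with offset 0, with no filter on dim probes and with probes well above background in all 4 channels. It was 2057 (62.3% higher) with processed signals and loess, 117 (109 higher, 8 lower) with median centring, 2130 (55.4% higher) both with the ratio of the scanner software and with the authors' series table, and 18226 (18223 higher, 3 lower) with spike-in scaling. The 20 called list genes became 6, 0, 6, 6 and 63 under the same settings in that order. All 6 under each of processed signals and the scanner ratio were among the 20, and with median centring limma gave 1 list gene at an unadjusted p under 0.05. All 20 kept their sign except with spike-in scaling, where 4 did. PDPR (first probe) moved from 3.90 to 4.69 with offset 0, 5.03 with processed signals, 4.97 with the scanner ratio, 4.97 with the authors' table and 6.03 with spike-in scaling. PDK4 moved from -2.37 to -2.45 with offset 0, -2.45 with processed signals, -2.47 with the scanner ratio, -2.47 with the authors' table and -0.25 with spike-in scaling, where it was not called. The shift of all probes by 2.12 is the construction of that scaling, which uses the same shift for both arrays, and the cause of the other moves was not tested. Each array alone has no test and gave 3.67 to 4.14 for PDPR and -2.40 to -2.34 for PDK4. No further block was fitted, since DFM and control are paired within each array by the ratio itself. Dim signal limits PDHX, the second DLAT probe, the second PDPR probe and the control side of the first PDPR probe.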
